A study of Mus musculus with 6 samples.

Results

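Interferon-inducible GTPases of the IRG and GBP families were examined in macrophages and leukemia cells of mice with and without iron overload. The 10 genes were Tgtp1, Tgtp2, Iigp1, Irgm1, Irgm2 and Igtp of the IRG family and Gbp2, Gbp3, Gbp6 and Gbp7 of the GBP family, out of 54532 genes in each library. They were chosen by a measured value: Tgtp2 was among the largest falls with iron in leukemia cells, and its relatives were listed with it by name. The comparison of leukemia cells with and without iron is therefore only described below and supports nothing about the family. Sorted cells were profiled by RNA sequencing in 6 libraries, 1 for each condition, so no value has a replicate check and no spread between mice is known.

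The animals were C57BL/6 mice of 6 to 8 weeks. WT mice carried no leukemia and received PBS, and WT/FE mice carried no leukemia and received iron dextran. MA9 mice had been transplanted with GFP-marked leukemia cells that express MLL-AF9, a fusion gene of human acute myeloid leukemia, and received PBS, and MA9/FE mice had the same transplant and received iron dextran. Iron dextran was given intraperitoneally 6 times, every other day, in 0.2 mL at 25 mg/mL. The leukemia was made by retroviral transfer of MLL-AF9 into c-kit+ bone marrow (BM) cells, so the fusion gene was driven by a viral promoter and not by its own locus. All 4 kinds of mice gave a macrophage library, and the leukemic mice, with and without iron, each gave a library of leukemia cells as well. The macrophages came from the spleen by the labels but from the BM by the published methods, and the leukemia cells came from the BM, so cell kind and organ cannot be told apart where the labels are followed. How many mice went into a library is not given in the sources used here. Values are listed below in a fixed order, WT, WT/FE, MA9, MA9/FE for macrophages, then without iron (MA9) and with iron (MA9/FE) for leukemia cells.

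IRG and GBP proteins are GTPases that cells make in large amounts after contact with interferon, above all interferon-gamma. Tgtp1, Tgtp2 and Iigp1 are effector IRG proteins, which load onto the membrane of a vacuole that holds an intracellular parasite or bacterium and break it. Irgm1, Irgm2 and Igtp are regulatory IRG proteins, which sit on the membranes of the host cell and keep the effectors in their inactive state there. GBP proteins are recruited to the same vacuoles and to freed bacteria, where they help to open them and to start inflammasome signalling. In this pathway interferon-gamma binds its receptor, JAK kinases at the receptor pass the signal on to the nucleus, and genes are then switched on through a DNA motif called GAS. A second motif, called ISRE, is bound by factors that include IRF9 and IRF1, so genes with both motifs can respond to more than 1 kind of interferon.

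Promoter sequences are shown because both motifs can be read directly from them. RefSeq promoters (GRCm38.p6, 250 bases before to 50 bases after the annotated start) were matched by symbol for 8 of the 10 genes, and none is printed for Iigp1 and Gbp6. The letters searched were TTCNNNGAA for GAS, which reads the same on both strands, and GAAANNGAA for the core of ISRE on either strand. Matches are in capitals, and each stretch is written from 5′ to 3′ along its gene. The first 4 stretches hold a GAS match followed by an ISRE match, and the other stretches hold ISRE matches, in Gbp7 with 2 GAS matches before it.
Tgtp1 (chr11:48992287-48992346, minus strand): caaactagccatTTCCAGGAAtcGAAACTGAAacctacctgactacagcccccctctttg
Tgtp2 (chr11:49064246-49064305, minus strand): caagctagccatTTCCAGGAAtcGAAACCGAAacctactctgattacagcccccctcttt
Irgm2 (chr11:58214890-58214949, plus strand): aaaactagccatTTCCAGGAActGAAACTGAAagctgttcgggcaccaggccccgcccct
Igtp (chr11:58199499-58199555, plus strand): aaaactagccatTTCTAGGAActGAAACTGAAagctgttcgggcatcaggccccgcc
Irgm1 (chr11:48871428-48871457, minus strand): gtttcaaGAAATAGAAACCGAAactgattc
Gbp2 (chr3:142620598-142620627, plus strand): ttttagtTTCACTTTCactgtcttaagcat
Gbp3 (chr3:142559993-142560022, plus strand): acacagtTTCAGTTTCTATTTCccagatcc
Gbp7 (chr3:142530218-142530296, plus strand): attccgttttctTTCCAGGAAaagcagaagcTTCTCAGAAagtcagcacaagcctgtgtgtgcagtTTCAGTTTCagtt

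All 8 promoters held the ISRE core and 5 of the 8 held GAS. Of 32851 promoters of the same length, 8.56% held the ISRE core, 8.3% held GAS and 1.07% held both. In Tgtp1, Tgtp2, Irgm2 and Igtp the GAS match ended 2 bases before the ISRE match, and 0.277% of all promoters had the motifs starting within 20 bases of each other. The ISRE matches of Irgm1 shared 3 bases with each other, as did those of Gbp3, and no GAS match overlapped an ISRE match. The Irgm1 stretch lay in an exon of another annotated Irgm1 transcript, 26 bases of the Gbp2 stretch lay in an exon of a Gbp2 transcript with an earlier start, and the Tgtp1 and Irgm2 stretches lay within the span of their genes but in no exon of them (GENCODE M21). RefSeq lists a second start for Gbp3, and its promoter held neither motif. A match is a match of letters and not a measured binding site.

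**Figure D1:**
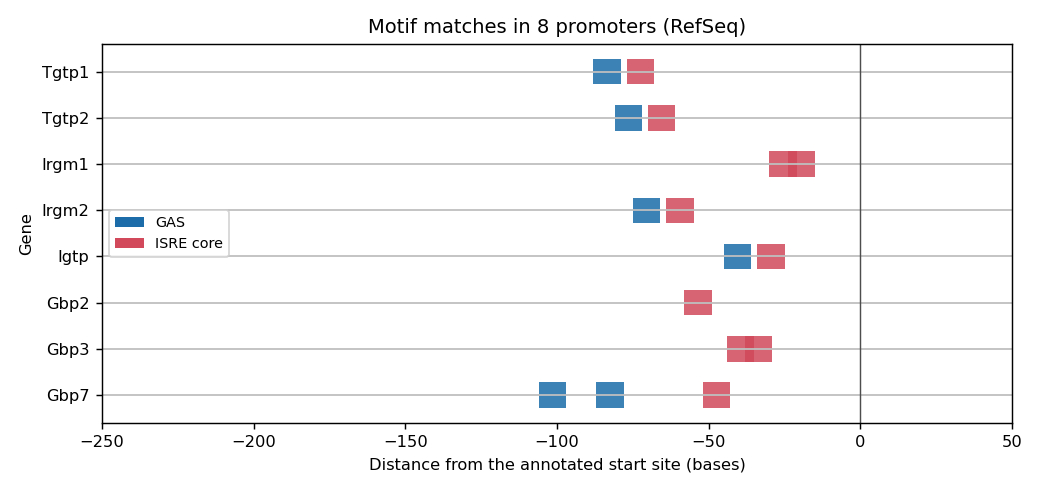
Matches to GAS (blue) and to the ISRE core (red) in the promoters of 8 IRG and GBP genes, with distance from the RefSeq start site in bases on the x axis. The ISRE core was found in all 8, and in Tgtp1, Tgtp2, Irgm2 and Igtp a GAS match lay 2 bases before it.

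The genes lie in a few clusters. On chromosome 11 are Irgm1 (48861968 to 48871683), Tgtp1 (48985327 to 48994172), Tgtp2 (49057194 to 49064206), Igtp (58199556 to 58207591) and Irgm2 (58199618 to 58222782). On chromosome 3 are Gbp7 (142530342 to 142550149), Gbp3 (142560026 to 142573209) and Gbp2 (142620602 to 142638008). Gbp6 lies on chromosome 5 (105270702 to 105293698) and Iigp1 on chromosome 18 (60376027 to 60392634). Coordinates are those of GRCm38, the assembly also called mm10.

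Some of these genes share sequence, which limits how reads can be divided among them. The Tgtp1 and Tgtp2 transcripts were 99.3% identical, with 2804 identical positions, 6 mismatches and 13 gap positions, whereas their promoters were 66.8% identical. Of all stretches of 50 bases in their transcripts, 81.2% for Tgtp1, 86.6% for Tgtp2 and 70.7% for Gbp6 also occurred in another gene, and for the other 7 genes the share was between 0.379% (Irgm1) and 12.7% (Gbp7). Tgtp1 also overlaps the gene Gm12185 on the same strand, Gbp6 overlaps Gm43302, and Igtp and Irgm2 overlap each other over 7974 bases. Gm12185 was between 0.0600 and 1.33 FPKM over the 6 libraries, and Gm43302 was listed at 0 in each. Single values of Tgtp1, Tgtp2 and Gbp6 are therefore uncertain, and sums over Tgtp1 and Tgtp2 are given where they matter.

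The deposited values are FPKM, which are reads scaled to the length of the gene's exons and to the reads counted in the library. Multiplied by exon length they were whole multiples of 1 read for 96.8% to 97.0% of the values above 0 (within 0.05 of a read), and the depth recovered in this way was between 16085347 and 19518360 reads per library. All 10 genes came out as whole reads in every library, and between 2666 and 8137 reads fell on them. All 4 libraries labelled as macrophages held more summed FPKM of B cell markers than of macrophage markers. The sum over 15 macrophage markers was 687, 1124, 778 and 1481, and the sum over 10 B cell markers was 2194, 2057, 1257 and 2189, with none of either list at 0. The macrophage marker sum did not separate the kinds of library, at 1265 and 1604 in the leukemia cells. Lyz2 alone was 1017 and 1348 FPKM there, against 258 to 528 in the macrophage libraries. In the leukemia cells the B cell sum was 23.3 and 22.4, and the leukemia target genes, among them Hoxa9 at 40.6 and 41.0 FPKM, summed to 277 and 307 against 76.3 to 99.7 in the macrophage libraries. Not all of that list was higher in leukemia cells. Kit was 11.3 and 10.8 FPKM there against 16.2 to 26.8 in the macrophage libraries, and Flt3 12.7 and 22.0 against 29.3 to 42.6. Mef2c overlapped, at 14.5 and 19.1 against 13.9 to 16.6, and the rest of the list was higher in leukemia cells. Neutrophil markers summed to 8.40 and 6.52 in macrophages of mice without leukemia but to 1794 and 910 in those of leukemic mice, and to 2825 and 2153 in the leukemia cells.

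The 10 genes were detected in every library, and their summed level was highest in MA9 macrophages. Summed over the 10 genes, the level was 93.2, 84.2, 135 and 105 FPKM in the 4 macrophage libraries and 70.0 and 43.4 FPKM in the leukemia cells. Of the 10 genes, 9 were highest in MA9 macrophages and lowest in MA9/FE leukemia cells, and Gbp3 was the exception. The share of all genes with this order was not counted. The MA9/FE leukemia cell library also belongs to the comparison from which the list was drawn, so low values there are described only. Because these are bulk libraries, fewer cells that express a gene and less RNA of it per cell cannot be told apart.

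Among the effector IRG genes, Tgtp2 was 7.92, 7.46, 16.2 and 8.74 FPKM in the macrophages and 3.13 and 0.343 FPKM in the leukemia cells. The MA9 macrophage library stood above the other 3 macrophage libraries, which were close to each other, and both leukemia cell libraries stood below all of them. Tgtp1, the near-identical copy, was 1.29, 0.910, 4.79 and 1.67 FPKM in the macrophages and 0.275 and 0.122 in the leukemia cells. Its order over the 6 libraries was led by the same library. Iigp1 had the widest range of the 10, with 1.59, 1.81, 9.54 and 2.95 FPKM in the macrophages and 0.406 and 0.0179 in the leukemia cells. The value of Iigp1 in MA9/FE leukemia cells rests on 2 reads and that in MA9 leukemia cells on 46, so its highest level was 531 times its lowest by FPKM, on a count too small to fix that ratio.

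The 3 regulatory IRG genes lay between 10.3 and 29.3 FPKM in the macrophages. Irgm1, which also acts in autophagy and mitochondrial function, was 16.2, 13.1, 16.6 and 15.9 FPKM in the macrophages and 6.17 and 4.0 in the leukemia cells. Irgm2 was 12.1, 11.7, 12.8 and 10.3 FPKM in the macrophages and 5.94 and 3.67 in the leukemia cells. Both genes split the libraries by cell kind, with the 4 macrophage values close together and both leukemia cell values below them. Leukemia cell values also lay below all macrophage values for Tgtp1, Tgtp2, Iigp1, Igtp, Gbp2 and Gbp6. How many of all genes split in this way was not counted. Igtp, the most abundant of the 10 genes in every macrophage library, was 19.1, 18.3, 29.3 and 27.3 FPKM, and 12.6 and 6.40 in the leukemia cells. Here, as for Tgtp1, Tgtp2, Iigp1, Gbp2 and Gbp6, both macrophage libraries of leukemic mice lay above both libraries of mice without leukemia. How many of all genes did so was not counted either.

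Among the GBP genes, Gbp2 was 12.4, 10.3, 21.6 and 14.0 FPKM in the macrophages and 10.1 and 3.47 in the leukemia cells. Gbp7 was 5.20, 5.31, 7.41 and 4.56 FPKM, and 5.17 and 2.73 in the leukemia cells, so its value in MA9 leukemia cells lay among those of the macrophages. Gbp6 was the lowest of the 10 genes in 5 of the 6 libraries, at 0.542, 0.50, 1.20 and 0.731 FPKM in the macrophages and 0.222 and 0.0376 in the leukemia cells, the last on 4 reads. Gbp2 and Gbp6 followed the order of Tgtp2, with the MA9 macrophages on top. Gbp3 did not, at 16.9, 14.9, 15.5 and 18.7 FPKM in the macrophages and 25.9 and 22.6 in the leukemia cells. It was the most abundant of the 10 in both leukemia cell libraries and varied least, by 1.74-fold from the lowest to the highest library.

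**Figure D2:**
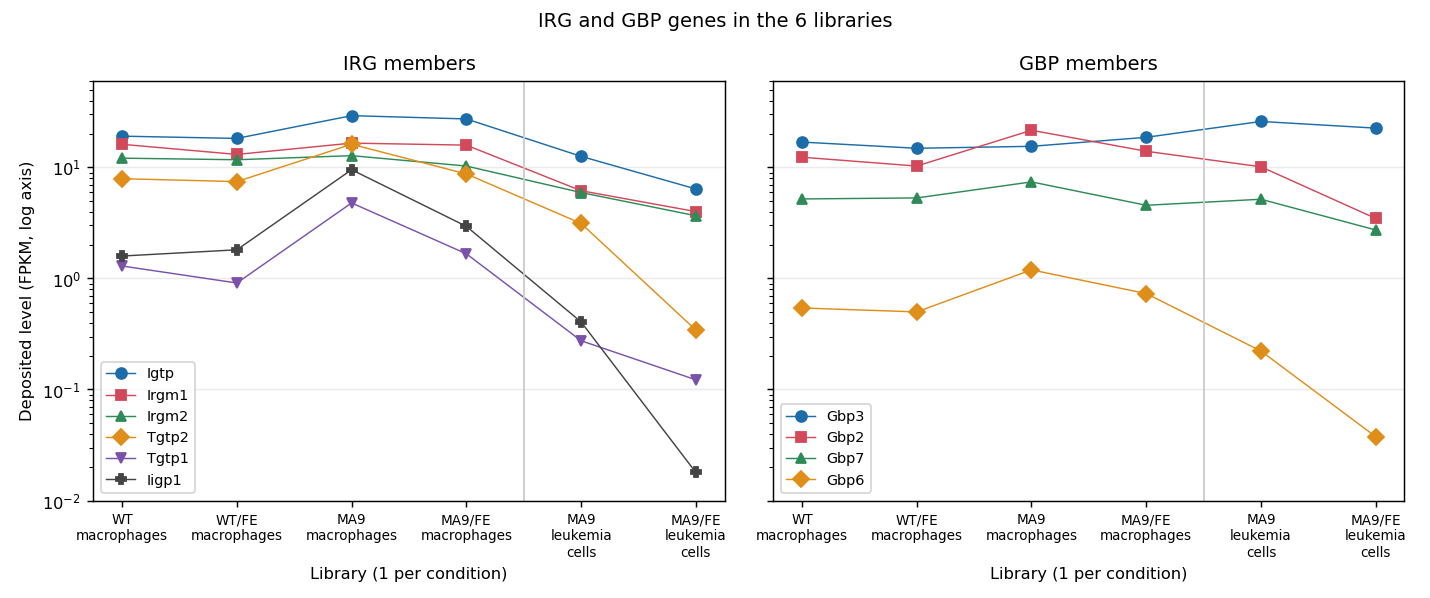
Deposited level of each IRG gene (left) and GBP gene (right) in the 6 libraries, in FPKM on a log axis, with 1 point per library and lines only to guide the eye. Most genes peak in MA9 macrophages and are lowest in MA9/FE leukemia cells, Iigp1 at 0.0179 FPKM, while Gbp3 is highest in MA9 leukemia cells at 25.9 FPKM.

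Over the 6 libraries, the log2(FPKM + 1) of each gene was set against the mean of the other 9. Pearson's r was between 0.87 (Gbp7) and 0.98 (Tgtp2 and Gbp6) for 9 genes and was -0.75 for Gbp3. These values describe 6 libraries that differ in cell kind, leukemia and iron at once. Tgtp1 and Tgtp2 may also share reads, and so may Igtp and Irgm2.

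The next comparison asked how the family differed in macrophages when the mouse carried leukemia. Folds were taken on the log2(FPKM + 1) scale after scaling the pair of libraries (TMM, the trimmed mean of M values), a gene was called at a fold of at least 2, and a gene was kept if either library of the pair had at least 10 reads on it. This scale understates the change of low genes, so the ratio of scaled reads is given too, with a 95% interval that covers counting error only and not the difference between mice. All 10 genes passed the minimum of reads in each of the 7 comparisons below.

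In MA9 against WT macrophages, without iron, 2 of the 10 genes were called higher, beside 3.78% of 16794 genes, and none was called lower, beside 0.917%. The genes were Iigp1, at 6.05 times the reads of WT macrophages (interval 5.18 to 7.09, log2 fold 2.03), and Tgtp1, at 3.73 times (2.90 to 4.85, log2 fold 1.34). Called by the ratio of reads instead (a ratio of at least 2 with its interval past 1), 4 genes were higher, beside 8.84% of all genes, with Gbp6 at 2.23 times (1.63 to 3.07) and Tgtp2 at 2.06 times (1.84 to 2.32) in addition. Tgtp1 and Tgtp2 counted together stood at 2.32 times (2.09 to 2.57). The effector IRG genes and Gbp6 thus lay above the regulatory IRG genes, of which Igtp stood at 1.54 times (1.40 to 1.70), Irgm2 at 1.06 times (0.965 to 1.17) and Irgm1 at 1.03 times (0.968 to 1.11). Gbp2 stood at 1.77 times (1.59 to 1.96), Gbp7 at 1.44 times (1.29 to 1.61) and Gbp3 at 0.925 times (0.844 to 1.01). The interval lay above 1 for 7 of the 10 and for 28.9% of all genes. The median log2 fold of the 10 genes was 0.56, and that of all genes was -0.01.

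In MA9/FE against WT/FE macrophages, where both mice had iron overload, none of the 10 was called higher, beside 2.96% of 16386 genes, or lower, beside 1.59%. Tgtp1 stood at 1.86 times (1.3 to 2.70), Iigp1 at 1.65 times (1.37 to 1.99), Igtp at 1.52 times (1.37 to 1.69) and Tgtp2 at 1.19 times (1.03 to 1.37). The effector genes therefore stood less far apart between leukemic and non-leukemic mice in this pair than in the pair without iron, while Igtp stood at about the same ratio in both pairs. Whether the pairs differ beyond the spread between mice was not tested. Gbp3 stood at 1.27 times (1.16 to 1.40), Gbp2 at 1.38 times (1.22 to 1.57), Gbp6 at 1.48 times (1.02 to 2.18) and Irgm1 at 1.23 times (1.14 to 1.33). Irgm2 at 0.891 times (0.799 to 0.994) and Gbp7 at 0.872 times (0.763 to 0.995) lay just below 1. The interval lay above 1 for 8 of the 10 and below 1 for 2, beside 32.6% and 27.8% of all genes. The median log2 fold was 0.31 over the 10 genes and 0.02 over all genes.

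**Figure D3:**
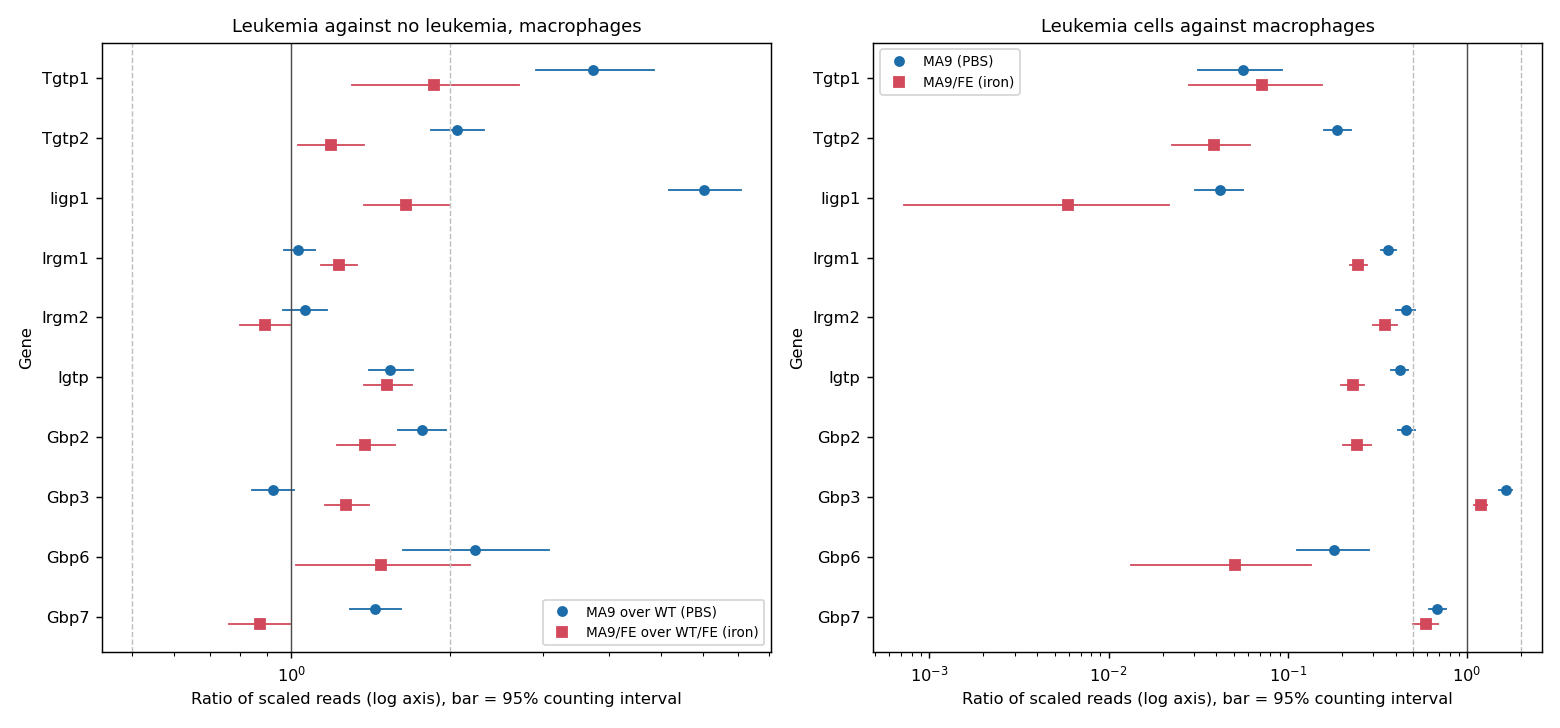
Ratio of scaled reads on a log axis, with bars for the 95% counting interval, for leukemic over non-leukemic mice in macrophages (left, without and with iron) and for leukemia cells over macrophages (right). On the left Iigp1 reaches 6.05 without iron and 1.65 with iron, and on the right every gene but Gbp3 lies below 1. The dashed lines mark ratios of 0.5 and 2.

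The same 4 libraries showed how iron went with the family in macrophages. In WT/FE against WT macrophages none of the 10 was called higher, beside 0.686% of 16616 genes, or lower, beside 0.548%. The counting interval lay below 1 for Irgm1 at 0.807 times (0.751 to 0.867), Gbp2 at 0.829 times (0.731 to 0.939) and Gbp3 at 0.876 times (0.799 to 0.960), and it included 1 for the other 7. Intervals below 1 were found for 19.0% of all genes in this pair. Tgtp2 stood at 0.938 times (0.815 to 1.08) and Iigp1 at 1.13 times (0.923 to 1.39). The median log2 fold of the 10 genes was -0.08, with -0.02 over all genes.

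In MA9/FE against MA9 macrophages, 2 of the 10 genes were called lower with iron, beside 1.23% of 16319 genes, and none was called higher, beside 1.21%. These were again Iigp1, at 0.317 times (0.278 to 0.361, log2 fold -1.39), and Tgtp1, at 0.357 times (0.277 to 0.457, log2 fold -1.09), and by the ratio of reads the same 2 genes were lower, beside 5.65% of all genes. Tgtp2 stood at 0.554 times (0.491 to 0.625), and Tgtp1 and Tgtp2 together at 0.506 times (0.454 to 0.563). Gbp6 at 0.627 times, Gbp7 at 0.632 times, Gbp2 at 0.663 times and Irgm2 at 0.827 times had intervals below 1, Igtp at 0.958 times and Irgm1 at 0.983 times had intervals that included 1, and Gbp3 stood at 1.24 times (1.13 to 1.36). Intervals below 1 were thus found for 7 of the 10, beside 26.0% of all genes, and intervals narrow as reads increase. The median log2 fold was -0.44 for the 10 genes and 0.02 for all genes. This comparison and that of MA9 with WT macrophages share the MA9 library, so a high value in that 1 library enters both with opposite sign.

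**Figure D4:**
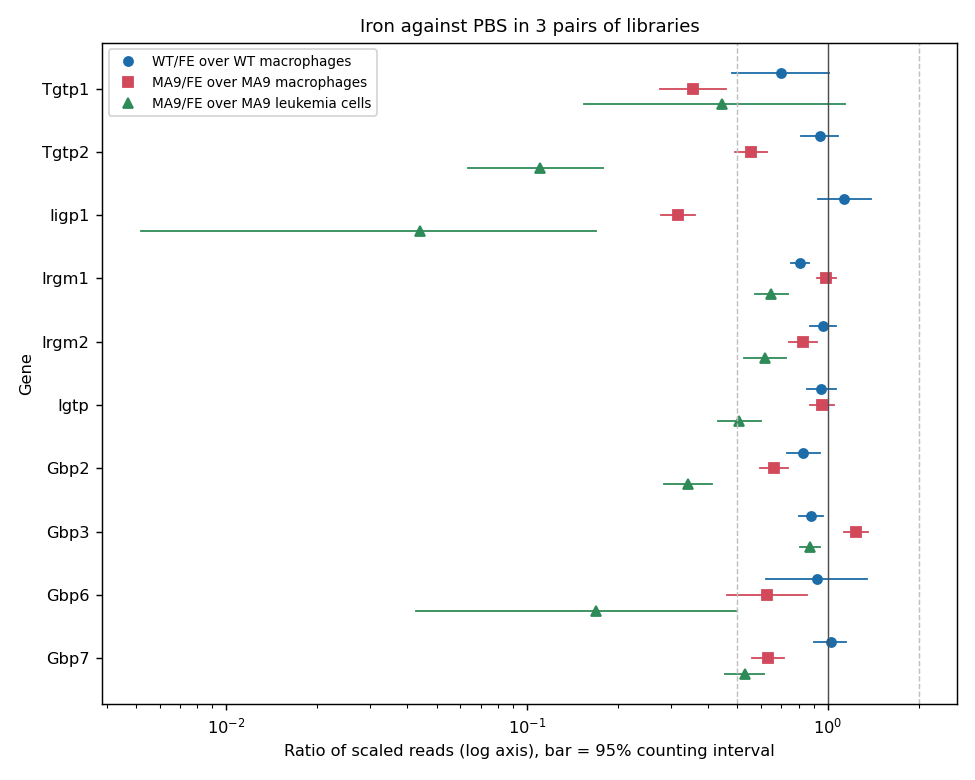
Ratio of scaled reads, iron over PBS, on a log axis for the 10 genes in WT macrophages (blue), MA9 macrophages (red) and MA9 leukemia cells (green), with bars for the 95% counting interval. In MA9 macrophages Iigp1 and Tgtp1 lie lowest at 0.317 and 0.357, and in leukemia cells Iigp1 and Tgtp2 lie at 0.0442 and 0.110. The dashed lines mark ratios of 0.5 and 2.

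Other cells in the sort moved with these macrophage libraries. The neutrophil sum was 1794 FPKM in MA9 macrophages, where 9 of the 10 genes were highest, against 910 in MA9/FE and 8.40 or less in the other macrophage libraries. The neutrophil sum was higher still in the leukemia cells, in which those 9 genes were lower than in MA9 macrophages. The B cell sum was lowest in MA9 macrophages, the macrophage sum was higher in both iron libraries (1124 and 1481 against 687 and 778), and the erythroid sum was 93.1, 205, 273 and 504 in the 4 macrophage libraries. Sums of T cell markers were between 70.1 and 97.7, of NK cell markers between 124 and 200, and of dendritic cell markers between 470 and 570 FPKM in the 4 libraries. The part of these cells in the values of the IRG and GBP genes was not tested.

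A single model over the 4 macrophage libraries allowed an error to be estimated, with iron and leukemia as additive terms (limma on log2(FPKM + 1), 1 residual degree of freedom, Benjamini-Hochberg adjustment over 16109 genes). With 1 library per condition, that error is the departure from additive terms, shared across genes, and not a spread between mice. A gene whose ratios with iron differ with and without leukemia therefore gets a larger error. For leukemia, 2.72% of genes passed an adjusted p of 0.05 and none of the 10 did. An unadjusted p under 0.05 was found for 5 of the 10 and for 15.6% of all genes. Iigp1 had the largest leukemia coefficient of the 10 in limma, 1.27 (SE 0.34, adjusted p = 0.122), followed by Tgtp1 at 0.92 (SE 0.24, adjusted p = 0.113). Gbp2 at 0.61, Tgtp2 at 0.60 and Igtp at 0.60 had adjusted p-values from limma of 0.174, 0.256 and 0.157. With a minimum of 50 reads in place of 10, Iigp1 and Tgtp1 were called at the same coefficients of 1.27 and 0.92, and the share of all genes called rose to 7.83%. For iron, 0.0124% of genes were called, and none of the 10 was, with an adjusted p of 1.0 in each case. An unadjusted p under 0.05 was found for 1 of the 10, Tgtp1 at a coefficient of -0.69 (SE 0.24), beside 3.85% of all genes, and Iigp1 followed at -0.65 (SE 0.34). The model assumes that iron acts equally with and without leukemia, and the ratios above for Iigp1 (1.13 and 0.317) were far from equal.

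The leukemia cells are described next with and without iron, the comparison from which the list was drawn. Tgtp2 had 167 reads without and 18 with iron, a ratio of 0.110 (interval 0.0634 to 0.179), and it ranked 10 from the lowest of 15259 genes on the log2(FPKM + 1) scale. Gbp2 stood at 0.343 times (0.284 to 0.412). These were the 2 genes called lower, beside 0.433% of all genes, and none was called higher, beside 0.380%. By the ratio of reads Iigp1 at 0.0442 times (0.00520 to 0.169, 2 reads against 46) and Gbp6 at 0.169 times (0.0427 to 0.493, 4 against 24) were lower too, beside 2.18% of all genes. The regulatory genes Igtp, Irgm2 and Irgm1 stood at 0.508, 0.618 and 0.648 times, Gbp7 at 0.529 times and Gbp3 at 0.871 times, and their intervals lay below 1, as did those of 14.5% of all genes. Tgtp1, on 7 reads against 16, stood at 0.445 times with an interval of 0.155 to 1.14. Tgtp1 and Tgtp2 together stood at 0.139 times (0.0876 to 0.212). All 10 log2 folds were below 0, beside 49.7% of all genes, in this comparison from which the list was drawn. The median log2 fold was -0.55 against 0.00 for all genes, and the summed FPKM of the 10 genes was 0.620 times that without iron. The summed erythroid markers were 429 without and 164 with iron in these cells, and the other marker sums differed by less in proportion, for example neutrophil markers at 2825 and 2153.

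Side by side, the ratio with iron in MA9 macrophages and in leukemia cells was 0.317 and 0.0442 for Iigp1, 0.554 and 0.110 for Tgtp2, 0.663 and 0.343 for Gbp2, 0.627 and 0.169 for Gbp6, 0.632 and 0.529 for Gbp7, and 0.827 and 0.618 for Irgm2. Tgtp1 had the lower ratio in the macrophages, 0.357 against 0.445 in the leukemia cells, where its interval included 1. The leukemia cell ratios come from the comparison through which the list was drawn, so low ratios there are described only. Irgm1 and Igtp stood at 0.983 and 0.958 times in the macrophages and at 0.648 and 0.508 times in the leukemia cells, and Gbp3 at 1.24 and 0.871 times. These comparisons use separate libraries, and the difference between them was not tested.

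Leukemia cells were also set against macrophages of the same treatment. These comparisons use the leukemia cell libraries through which the list was drawn, and cell kind and organ cannot be told apart in them. Without iron, 7 of the 10 genes were called lower in leukemia cells, beside 12.7% of 16866 genes, and none was called higher, beside 7.38%. By the ratio of reads 8 were lower, beside 22.3%. Iigp1 stood at 0.0416 times (0.0303 to 0.0559) and Tgtp1 at 0.0561 times (0.0316 to 0.0929), the regulatory genes Irgm1, Igtp and Irgm2 at 0.364, 0.421 and 0.455 times, and Gbp2 at 0.458 times. Gbp7 at 0.683 times was less low, and Gbp3 at 1.64 times (1.51 to 1.78) was higher in leukemia cells. With iron, 7 of the 10 were called lower, beside 13.3% of 16678 genes, and none higher, beside 9.55%, and 8 by the ratio of reads, beside 23.1%. Tgtp2 stood at 0.0385 times (0.0226 to 0.0616), Iigp1 at 0.00597 times (0.000719 to 0.0218, 2 reads against 296) and Gbp3 at 1.19 times (1.09 to 1.29). The median log2 fold of the 10 was -1.12 without iron and -1.53 with iron, where all genes had -0.01 and -0.03.

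Other genes of the pathway were read from 8 lists, of which the interferon ligands had a single measurable member. Of all genes tested, 53.7% had log2 folds below 0 with iron in WT macrophages, 47.7% in MA9 macrophages and 49.7% in leukemia cells. With leukemia the share in macrophages was 50.8% without iron and 48.1% with iron. Ifng, the gene of interferon-gamma, which is made mainly by T and NK cells, was 1.94, 1.10, 2.86 and 1.73 FPKM in the macrophages, and it had 0 reads and 1 read in the leukemia cells. In both pairs iron went with the lower value (log2 folds -0.49 and -0.48), on 24 to 63 reads. Ifnk had at most 7 reads in any library, and the other 8 ligands were listed at 0.

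The receptor chains were present in both kinds of cell. Ifngr1, the ligand-binding chain, was between 88.1 (MA9 macrophages) and 146 FPKM (MA9/FE leukemia cells), and Ifngr2 was between 16.1 and 29.1 FPKM. None of the 7 genes for receptors and JAK kinases was called in the iron or the leukemia comparisons. The median log2 fold was -0.27 in MA9 against WT and -0.24 in MA9/FE against WT/FE macrophages, with all 7 below 0 in each, from Tyk2 at -0.12 to Ifngr2 at -0.61 and from Ifnar2 at -0.09 to Tyk2 at -0.50. With iron the median was 0.01 in WT, 0.08 in MA9 macrophages and 0.01 in leukemia cells, between Ifngr2 at 0.43 and Tyk2 at -0.33, both in MA9 macrophages. Against macrophages, Jak2 stood at -1.95 and Ifnar2 at 0.94 in MA9 leukemia cells, and at -1.73 and 0.82 with iron. Jak1 was called lower as well in the pair with iron.

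Of 10 STAT and IRF factors none was called in the iron or the leukemia comparisons. Irf1, itself a gene that interferon-gamma induces, was 55.3, 54.9, 63.5 and 59.4 FPKM in the macrophages and 30.6 and 18.7 in the leukemia cells. In the leukemia cells Irf1 had the largest fall of the list with iron, a log2 fold of -0.68, in the same direction as the family. Irf8, a factor of myeloid cells, was 89.4 FPKM without and 116 FPKM with iron in the leukemia cells, a log2 fold of 0.37 and the largest rise of the list there. With iron, Irf7 had the largest fall in WT macrophages (-0.37) beside Irf8 at 0.15, and Stat3 in MA9 macrophages (-0.37) beside Irf3 at 0.52. With leukemia, Irf3 stood at -0.47 and Irf1 at 0.21 without iron, and Stat2 at -0.36 and Irf7 at 0.26 with iron. Against macrophages the medians were -0.74 and -0.88, with Irf7 lowest at -1.53 and -1.93. Batf2 was highest without iron at 0.16, where Irf8 stood at -0.10, and Irf8 was highest with iron at 0.30.

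The negative regulators held no called gene outside the comparisons of cell kind. Socs1, which blocks JAK kinases, was between 3.91 and 5.12 FPKM in the macrophages and 2.16 and 2.10 in the leukemia cells. Usp18, which dampens signalling of the type I receptor, had the largest fall with iron in WT macrophages (log2 fold -0.45) and in leukemia cells (-0.82), and Socs3 had it in MA9 macrophages (-0.26). Socs3 also had the largest rise with iron in WT macrophages (0.33) and in leukemia cells (0.56), and with leukemia without iron (0.71). The remaining extremes were Ptpn6 at 0.37 with iron in MA9 macrophages and at -0.45 in MA9 against WT, and Ptpn2 at 0.36 and Pias1 at -0.16 in MA9/FE against WT/FE macrophages. In leukemia cells against macrophages, Socs3 at -2.88 and Ptpn2 at -0.03 were the extremes without iron, and Usp18 at -2.11 and Ptpn2 at -0.30 with iron. Trex1 was listed at 0 in every library.

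The other IRG and GBP genes did not all follow the 10. Gbp8 and Gbp9, at 33.4 and 39.3 FPKM in WT macrophages, were lower in MA9 macrophages at 24.3 and 28.3, and were 0.592 and 1.88 in MA9 leukemia cells. Gbp4 and Gbp5 were 15.2 and 8.06 FPKM in WT macrophages, 14.3 and 8.83 in MA9 macrophages, and 0.625 and 2.10 in MA9 leukemia cells. Gm12250, an IRG gene, was 11.2, 9.48, 15.5 and 10.5 FPKM in the macrophages and 7.78 and 4.40 in the leukemia cells, and so peaked in MA9 macrophages like most of the 10. Gbp10 and Gbp2b were at most 0.49 and 0.625 FPKM. In MA9 against WT macrophages 8 of 16 tested genes lay above 0 and the median log2 fold was 0.02. The folds ran from Gm4951 at 0.69 to Irgc1 at -0.59, both genes at low levels, with Gm12250 at 0.45 and Gbp9 at -0.44. In MA9/FE against WT/FE 13 of 15 lay below 0 (median -0.26), from Gm12250 at 0.15 to 9930111J21Rik1 at -1.38, the 1 gene called.

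With iron, these other family genes had a median of 0.03 in WT macrophages. They lay between Gm4951 at 0.44 and Gbp10 at -0.30, both at low levels, with 9930111J21Rik1 at 0.22 and Gm12250 at -0.22. In MA9 macrophages 14 of 16 lay below 0 (median -0.38), and Irgc1 at 0.55 and Gbp8 at 0.24 lay above it. The lowest was 9930111J21Rik1 at -1.20, again the 1 gene called. In leukemia cells all 10 that were tested lay below 0 with iron (median -0.47), between 9930111J21Rik2 at -0.01 and Gbp5 at -0.98, and none was called. In leukemia cells against macrophages 8 of 16 were called lower without iron and 7 of 15 with iron. The folds lay between Gbp10 at -0.46 or 9930111J21Rik1 at -0.24 and Gbp8 at -4.01 or -4.70.

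**Figure D5:**
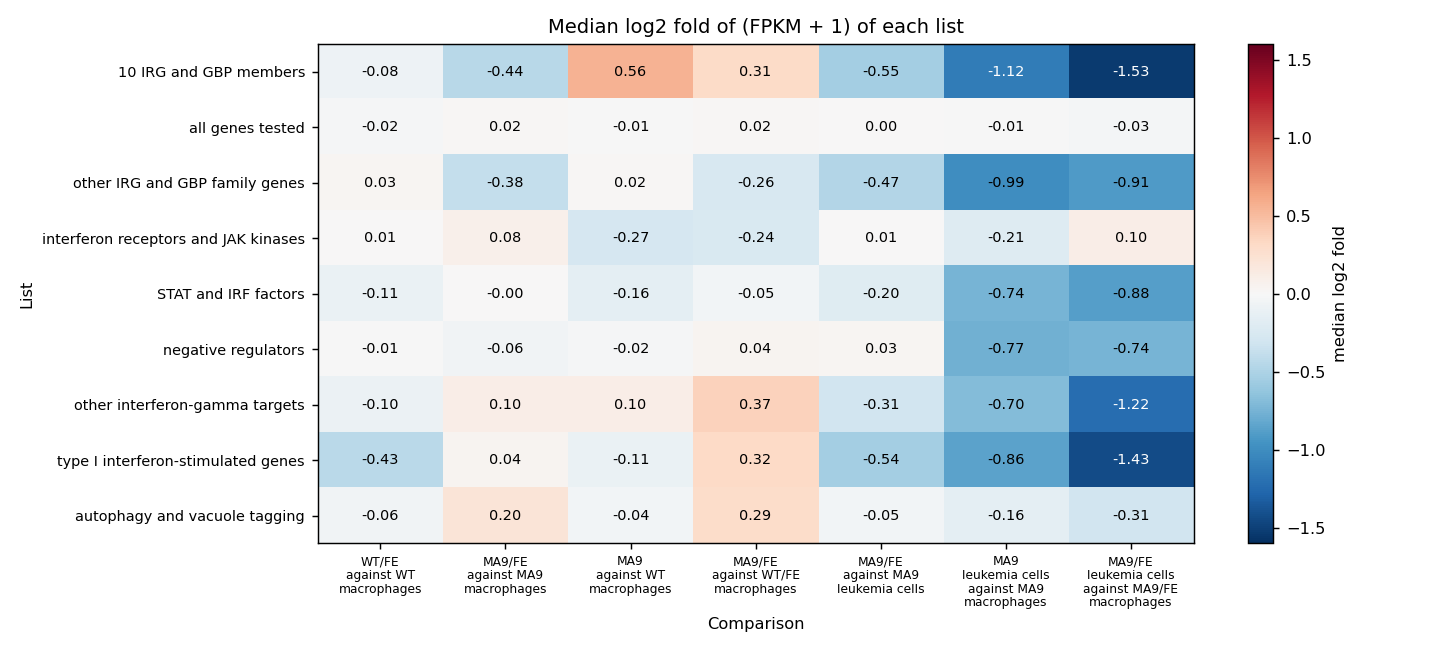
Median log2 fold on the log2(FPKM + 1) scale of the 10 genes, of all genes tested and of 7 lists of related genes (rows) in the 7 comparisons (columns). The 10 genes run from 0.56 in MA9 against WT macrophages to -1.53 in MA9/FE leukemia cells against macrophages, while all genes stay between -0.03 and 0.02.

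Other targets of interferon-gamma, such as chemokines, antigen presentation and immunoproteasome genes, formed a list of their own. Cxcl9 and Cxcl10, chemokines for T cells, were 13.5 and 5.07 FPKM in MA9 macrophages and 10.8 and 5.38 in MA9/FE macrophages. Ciita, the switch for MHC class II, which B cells also express, was 79.6, 84.5, 59.6 and 50.5 FPKM in the macrophages. Psmb9 and Tap1, of the immunoproteasome and of peptide transport, were 71.7 and 88.7 FPKM in MA9 macrophages and 81.8 and 86.1 in MA9/FE macrophages. Of 23 tested targets, 13 lay above 0 with iron in MA9 macrophages and the median was 0.10, between Fcgr1 at 0.69 and Nlrc5 at -0.87, with none called. With iron in WT macrophages 18 of 23 lay below 0 (median -0.10), between Serpina3f at 0.51 and Psme2 at -0.41.

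With leukemia, 15 of the 23 targets lay above 0 without iron (median 0.10), between Serpina3f at 1.40, a protease inhibitor gene and the 1 gene called, and Ciita at -0.40. With iron 19 of 23 did (median 0.37), between Ly6a at 1.02, the 1 gene called, and Ciita at -0.71. In the leukemia cells all 21 tested targets lay below 0 with iron (median -0.31), between Wars at -0.08 and Serpina3f at -1.97, and Serpina3f and Serpina3g were called lower, at 4.64 and 13.2 FPKM without and 0.440 and 2.79 with iron. There Cxcl9 was 1.06 and 0.297, Cxcl10 1.96 and 0.746, Psmb9 46.2 and 36.5, and Tap1 56.9 and 41.9 FPKM without and with iron. Against macrophages 9 of 23 and 14 of 22 targets were called lower, beside 12.7% and 13.3% of all genes. The folds of the list ran from Tap2 at 0.45 or 0.06 to Ly6a at -6.44 or -7.03.

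A list of 24 interferon-stimulated genes of the type I response was read beside the 10. In WT/FE against WT macrophages all 24 lay below 0 (median -0.43), between Ifi44 at -0.10 and Isg15 at -1.10. Isg15, a ubiquitin-like modifier, was called lower at 36.6 and 16.6 FPKM. In the same pair the median of the 10 IRG and GBP genes was -0.08. In MA9/FE against MA9 macrophages 13 of 24 lay above 0 (median 0.04), between Ifit3 at 0.45 and Eif2ak2 at -0.54, where the median of the 10 was -0.44. In MA9 against WT macrophages the median was -0.11, between Isg20 at 0.93 and Ifit3 at -0.65, and in MA9/FE against WT/FE it was 0.32, with Isg15, Isg20 and Ifi27l2a called higher, between Isg20 at 1.19 and Eif2ak2 at -0.23. In leukemia cells all 24 lay below 0 with iron (median -0.54), and Isg15, Oas2, Oasl2, Zbp1 and Rtp4 were called lower. The folds there lay between Ifit3b at -0.06, on 10 reads against 12, and Isg15 at -1.41. Against macrophages 11 and 15 of the 24 were called lower without and with iron, beside 12.7% and 13.3% of all genes. The folds of the list ran from Cmpk2 at 0.45 or Eif2ak2 at 0.28 to Isg20 at -2.61 or Isg15 at -3.29.

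The genes of autophagy conjugation and vacuole tagging, whose products direct IRG and GBP proteins to vacuoles, held no called gene among 15 with iron or with leukemia. With iron the median log2 fold was -0.06 in WT macrophages (from Map1lc3a at 0.22 to Atg10 at -0.42), 0.20 in MA9 macrophages (from Atg10 at 0.67 to Rnf213 at -0.91) and -0.05 in leukemia cells (from Traf6 at 0.17 to Map1lc3a at -0.40). With leukemia it was -0.04 without iron (from Gabarapl1 at 0.93 to Atg10 at -0.71) and 0.29 with iron (from Gabarapl1 at 0.69 to Rnf213 at -0.74). In leukemia cells Atg12 was called higher than in macrophages, at 1.36 without and 1.13 with iron, and Gabarapl2 was lowest at -0.61 and -1.11, called lower in the pair with iron.

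Outside all lists, the genes most like the family over the 6 libraries were sought among 4633 genes whose highest library held at least 100 reads and whose log2 range was at least 1. The measure was Pearson's r with the mean log2(FPKM + 1) of the 10 genes, and 171 genes had an r of at least 0.9 over these 6 points. The first 5 were Ly6i (r = 0.9911), Ube2l6 (0.9885), Tgif2 (0.9747), Ighv1-39 (0.9705) and Eng (0.9688). Ly6i, a Ly6 surface protein, was 3.86, 3.97, 10.8 and 5.97 FPKM in the macrophages and 1.38 and 0.388 in the leukemia cells. Ube2l6, the enzyme that conjugates ISG15, was 12.4, 10.1, 19.5 and 15.4 FPKM in the macrophages and 5.74 and 2.75 in the leukemia cells. Both peaked in MA9 macrophages and were lowest in MA9/FE leukemia cells, as were Tgif2, Ighv1-39 and Eng. Ighv1-39 is an immunoglobulin segment of B cells or plasma cells, at 309.5 FPKM in MA9 macrophages and 0.319 in MA9/FE leukemia cells.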

How the data were processed

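The authors deposited FPKM for 54532 genes in each of 6 libraries, and the submitters' processing notes name mm10, Bowtie2 2.2.5 and RSEM. How reads that fit several genes were assigned is not given in the sources used here. Symbols and exon lengths came from GENCODE M21. Reads were recovered as whole multiples of FPKM times exon length (tolerance 0.05). For Iigp1 the annotated length of 5823 bases gave no whole reads, and 6242 bases, which did so in every library, was used. At the depths of 16085347 to 19518360 reads, counting error is small except for genes with few reads.

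FPKM were scaled by TMM for each pair of libraries, and log2(FPKM + 1) folds of at least 2 were called among genes with at least 10 reads in 1 of them, without a test, since each condition has 1 library. Intervals of read ratios were exact (95%, binomial, conditional on the total). The rule on the ratio of reads was added after the data were seen. limma 3.58.1 (R 4.3.3) was fitted on log2(FPKM + 1) of the 4 macrophage libraries. On simulated data a fold of 2 recovered 196 of 200 changed genes with 10 false calls among 16603 (MA9 against WT macrophages), the ratio of reads 200 with 52 false calls, and limma 200 among 16191 with 13 false calls for leukemia. The simulated pair held counting error only, and the limma data a small set spread and strictly additive effects. Changed genes were drawn from those well covered by reads. The false calls are therefore no error rate for the calls above, which also carry differences between mice and sorts.

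The 10 genes and all lists were chosen with earlier results of these data known. Named genes were all 10, a fixed set of pathway genes, in each list the largest rise and fall (genes reaching 100 reads in the pair), and the 5 genes most like the mean of the 10. For the other IRG and GBP genes and the type I list, the gene furthest out is named whatever its reads. A gene of the list of STAT and IRF factors is not reported here. Alternatives were other scalings, a pseudocount of 0.1, no minimum or 50 reads, and folds with their trend on exon length taken out. Scripts ran in Python 3.11.15 (scipy 1.17.1, statsmodels 0.14.6).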

Additional observations from a re-analysis of the deposited data

Results flagged for a closer look

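Of 50 combinations of 10 genes and 5 pairs of like comparisons, 3 had counting intervals on opposite sides of 1, a share below the 9.15% of 75676 such combinations over all genes, and in none of them was the difference tested against the spread between mice. Gbp3 stood at 0.876 times with iron in WT macrophages but at 1.24 times in MA9 macrophages. Gbp3 also stood at 1.24 times with iron in MA9 macrophages but at 0.871 times in leukemia cells. Gbp7 stood at 1.44 times in MA9 against WT macrophages but at 0.872 times in MA9/FE against WT/FE macrophages, where its interval ended at 0.995. Each of the 3 rests on the MA9 or the MA9/FE macrophage library, and neither was repeated.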

How the results depend on the processing

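No paired analysis was possible because each condition has 1 library and the groups share only the number 1. Other scalings, no minimum of reads, 50 reads and removal of the length trend left the counts of the 10 genes called and their medians on the log2(FPKM + 1) scale within 1.5 times and within their counting error, respectively, in all 7 comparisons. A pseudocount of 0.1 raised the count higher in MA9 against WT macrophages from 2 to 4 and the count lower with iron in leukemia cells from 2 to 4. It moved the medians to 0.72 and -0.93 there, and to -1.34 and -2.06 in leukemia cells against macrophages without and with iron. The ratio of reads also gave 4 and 4. In limma a minimum of 50 reads called 2 of the 10 for leukemia, Tgtp1 and Iigp1 (beside 7.83% of 12342 genes), with none under the other settings, where the smallest adjusted p of the 10 ranged from 0.0859 to 0.349, and for iron none was called under any setting. Over single genes 1 sign changed, that of Irgm1 in MA9/FE against MA9 macrophages, from -0.02 to 0.02 without the length trend. Counts over all genes follow. Without the length trend MA9/FE against MA9 macrophages had 113 genes higher and 304 lower in place of 197 and 200, and MA9/FE against WT/FE had 312 and 417 in place of 485 and 261. With the pseudocount of 0.1, called genes rose from 114 and 91 to 395 and 358 in WT/FE against WT, from 197 and 200 to 618 and 829 in MA9/FE against MA9, from 634 and 154 to 1302 and 641 in MA9 against WT, from 485 and 261 to 1068 and 955 in MA9/FE against WT/FE, from 58 and 66 to 296 and 304 with iron in leukemia cells (higher and lower), and to 2137 and 3579 or 2694 and 3725 in leukemia cells against macrophages. With no minimum of reads they were 280 and 201, 314 and 416, 294 lower, 513 lower, and 180 and 195 in the first 5 of these comparisons, and with at least 50 reads 36 lower, 125 and 109, 68 lower, 121 lower, and 28 and 31, leaving out counts within 1.5 times. Genes called in limma went from 438 to between 0 and 966 for leukemia and from 2 to between 0 and 73 for iron. Depth limits Iigp1, Gbp6 and Tgtp1 in leukemia cells, at 2, 4 and 7 reads with iron.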
